A study of Mus musculus with 4 samples.

Results

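The GW6471 library was compared with the Vehicle library to ask how transcript levels in the liver differed when GW6471, named in the labels as an antagonist of the nuclear receptor PPARα, was given on the control diet. Of 15500 genes in the deposited table, the 10355 genes with a mean of at least 1 FPKM over the 4 libraries were described, FPKM being fragments counted per transcript length and per mapped total. Each gene was given the log2 ratio of FPKM + 0.1, GW6471 over Vehicle, so that a positive value was higher in GW6471. All groups were wild-type male mice of the Kunming stock, bought at 5 weeks of age and kept on chow for 1 week. Vehicle mice then ate chow with 1.5% (w/w) linoleic acid for 28 days, with vehicle injections where appropriate, and GW6471 mice ate the same linoleic acid chow with a daily intraperitoneal dose of 20 mg per kg of GW6471. CLA mice ate chow with 1.5% (w/w) conjugated linoleic acid, and CLA+GW6471 mice ate that CLA chow with GW6471 injections. Sampling at zeitgeber time 8 h is stated for the control and CLA mice, and no time is stated for the groups given GW6471.

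The labels give 6 mice per group but 1 library per group, and the sources used here do not say whether a library is 1 mouse or a pool of mice. No difference between groups could therefore be tested, no p-value is given, and the spread between mice is unknown. Beside many of the single ratios, and those of most genes of low level, stands a 95% exact counting interval of the FPKM ratio, which covers counting error in these libraries only. In whole tissue, fewer cells of a type and less RNA per cell cannot be told apart.

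PPARα is a nuclear receptor that binds DNA as a partner of RXR and is activated by fatty acids. In liver it is known for switching on genes of fatty acid uptake, mitochondrial and peroxisomal fatty acid oxidation and ketone body formation during fasting. PPARδ and PPARγ, its relatives, share the same kind of DNA site, and an antagonist competes with fatty acids for the receptor.

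The deposited columns sum to 511999.67 FPKM in Vehicle and 497014.64 FPKM in GW6471, and the steps of the low values put them at an estimated 18868750 and 19120750 mapped reads. The tissue label was read against marker lists. Of 30 hepatocyte markers 26 were listed and 13 passed the filter, among them Alb (albumin) at 679.53 FPKM in Vehicle and 1067.3 in GW6471 and Hnf4a at 54.53 and 47.23 FPKM. Other defining hepatocyte genes were at or near 0, with Ttr at 0.04 FPKM in Vehicle and listed at 0 in GW6471, Cyp2e1 at 0.06 and 0.04, and Cps1 at 0.01 and 0.03. No lymphocyte marker and no endothelial marker passed the filter, and the endothelial list summed to 0.97 FPKM in Vehicle and 0.83 in GW6471. The most abundant gene of the table was Sprr1a, an envelope protein of stratified epithelium, at 19046 FPKM in Vehicle and 18795 in GW6471. Genes of the cell cycle were also present, such as Mki67 at 24.28 FPKM in Vehicle and 28.1 in GW6471 and Top2a at 42.17 and 50.92. The libraries thus lacked much of the marker set of whole adult liver, and the values below are described as those of the libraries as labelled.

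The pair of libraries compared here was not the closest pair. Over the 10355 genes the log2 ratio of GW6471 over Vehicle had an SD of 0.305 and 557 genes were at least 1.5-fold apart, while CLA+GW6471 over Vehicle had an SD of 0.199 with 118 such genes and CLA over GW6471 an SD of 0.271 with 376. CLA+GW6471 over CLA was the widest pair, with an SD of 0.460 and 1656 such genes. GW6471 therefore stood nearer to CLA than to Vehicle, and Vehicle nearer to CLA+GW6471 than to any other library. With 1 library per group, diet, injection, mouse and library preparation cannot be told apart in these distances. Whether labels were exchanged between libraries was not tested, and an exchange would change what each ratio below compares. By their labels, Pdk4 and Cpt1a were high in both GW6471 libraries and the clock genes Arntl, Clock, Per1 and Cry1 were lowest in CLA, while many other genes were high in GW6471 and CLA or in Vehicle and CLA+GW6471. The values of all 4 libraries are therefore given for most of the genes described below.

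Most genes differed little between GW6471 and Vehicle. The median log2 ratio was -0.0041, the quartiles were -0.17 and 0.16, and 9798 genes (94.6%) were within 1.5-fold. At least 2-fold higher in GW6471 were 58 genes, 0.56% of the 10355, and at least 2-fold lower were 32 genes, 0.309%. At 1.5-fold the counts were 340 genes higher, 3.28%, and 217 lower, 2.1%, the shares of all genes against which each count of list members at 1.5-fold is to be read. Genes past 2-fold were mostly of low level: the median of their mean FPKM was 3.40 among those higher and 2.48 among those lower, against 14.3 over all genes, and with a mean of at least 5 FPKM 22 and 5 remained. The 2-fold counts include Gm10058, which was listed at 0 in Vehicle and at 3.87 FPKM in GW6471, and Gm3448, at 2.22 FPKM in Vehicle and listed at 0 in GW6471. Of the 10150 genes with a known length, 2760 were higher and 2795 lower by more than their counting interval, 54.7% together.

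**Figure D1:**
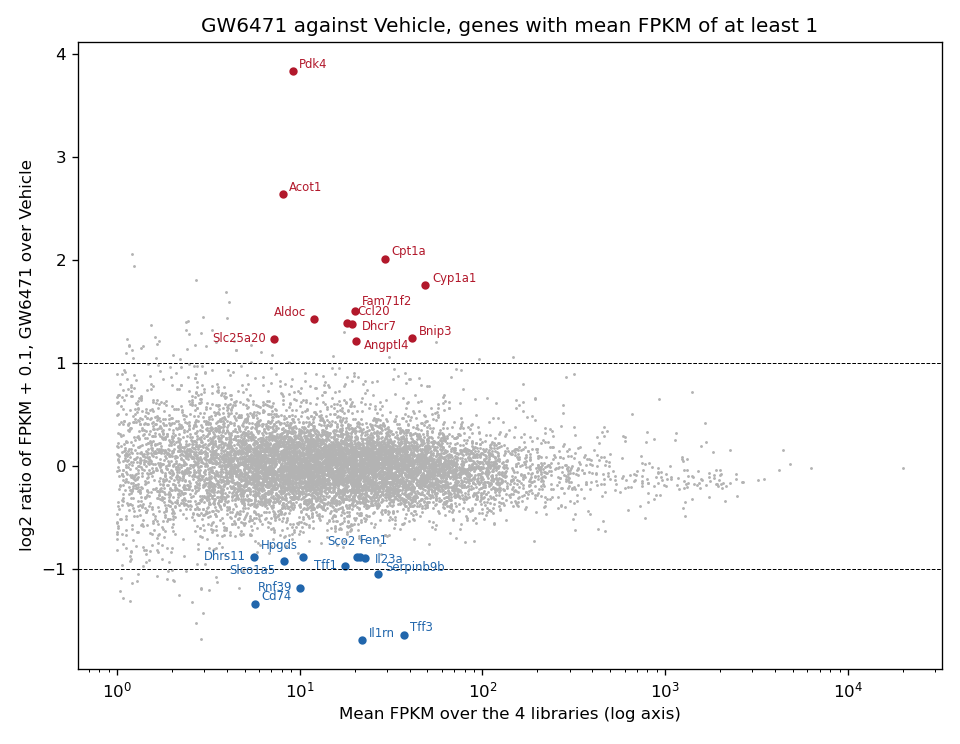
Log2 ratio of FPKM + 0.1 of GW6471 over Vehicle (vertical axis) against the mean FPKM over the 4 libraries (log axis), 1 grey point per gene with 11 of the 12 largest rises in red and the 12 largest falls in blue among genes with a mean of at least 5 FPKM. The dashed lines mark 2-fold, genes listed at 0 in either library are not drawn, and Pdk4 at 3.83, Acot1 at 2.63 and Cpt1a at 2.01 stand above the rest of the named genes.

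The 3 largest rises among genes with a mean of at least 5 FPKM were of PPARα targets that act in fuel choice and fatty acid oxidation. Pdk4, the pyruvate dehydrogenase kinase that turns cells from glucose to fatty acid oxidation, was at 1.17 FPKM in Vehicle, 17.99 in GW6471, 1.87 in CLA and 15.56 in CLA+GW6471. Both GW6471 libraries were high and both others low, and the log2 ratio over Vehicle was 3.83 (interval 3.61 to 4.29), a 14.2-fold difference. Cpt1a, the carnitine palmitoyltransferase that admits long-chain fatty acids to mitochondria, was at 11.34 FPKM in Vehicle, 46.04 in GW6471, 15.98 in CLA and 43.13 in CLA+GW6471, with a log2 ratio of 2.01 (1.92 to 2.13). Acot1, a cytosolic acyl-CoA thioesterase, was at 2.34, 15.04, 4.01 and 10.86 FPKM in the same order, with a log2 ratio of 2.63 (2.32 to 3.07). Acot1 and its neighbour Acot2 are close copies on chromosome 12 (mm9), so reads may be split between them and their separate values are uncertain. Acot2, the mitochondrial thioesterase, was at 15.44 FPKM in Vehicle and 23.75 in GW6471, and at 7.41 in CLA and 30.6 in CLA+GW6471.

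Pdk4, Cpt1a, Acot1 and Acot2 thus had the same order in both diets: each GW6471 library was above the matching library without it. The promoter of Pdk4 is printed because this gene had the largest rise among genes with a mean of at least 5 FPKM. The window runs from 250 bases before the start to 50 bases after it (RefSeq, GRCm38.p6, chr6:5496229-5496528, minus strand) and holds none of the 5 motifs searched.

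Pdk4: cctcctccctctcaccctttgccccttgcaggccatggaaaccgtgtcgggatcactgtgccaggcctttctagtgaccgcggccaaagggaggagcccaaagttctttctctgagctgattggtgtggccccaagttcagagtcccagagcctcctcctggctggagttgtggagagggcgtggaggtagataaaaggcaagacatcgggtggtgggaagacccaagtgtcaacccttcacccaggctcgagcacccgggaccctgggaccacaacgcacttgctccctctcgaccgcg

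Slc25a20, the carrier that exchanges acylcarnitine for carnitine across the inner mitochondrial membrane, was at 4.12 FPKM in Vehicle and 9.83 in GW6471 (1.23, 0.96 to 1.55). On the CLA diet it was at 6.61 FPKM without and 8.34 with GW6471, a log2 ratio of 0.33, within 1.5-fold. Cpt2, the inner-membrane partner of Cpt1a, was at 10.52 FPKM in Vehicle, 13.86 in GW6471, 15.09 in CLA and 12.87 in CLA+GW6471 (0.39, 0.22 to 0.57). Crot, the peroxisomal carnitine octanoyltransferase, was at 5.44, 7.38, 8.92 and 4.95 FPKM (0.43, 0.22 to 0.66), so both were lower with GW6471 on the CLA diet. Of 12 carnitine shuttle genes, all listed, 10 passed the filter, of which 2 (Cpt1a and Slc25a20) were at least 1.5-fold higher and none lower, with a median log2 ratio of 0.22. On the CLA diet the median of the same 10 genes was 0.03.

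Angptl4, a secreted inhibitor of lipoprotein lipase, was at 11.47 FPKM in Vehicle, 26.76 in GW6471, 10.15 in CLA and 32.39 in CLA+GW6471, with a log2 ratio of 1.22 (1.09 to 1.35). Hilpda, a lipid droplet protein that inhibits adipose triglyceride lipase, was at 90.15, 187.82, 80.45 and 227.47 FPKM in that order, with a log2 ratio of 1.06 (0.98 to 1.14). Plin2, the coat protein of hepatic lipid droplets, was at 211.71 FPKM in Vehicle and 318.4 in GW6471 (0.59, 0.55 to 0.63), and at 181.74 in CLA and 395.74 in CLA+GW6471. Angptl4, Hilpda and Plin2 were thus higher in the GW6471 library of either diet. Cidec, which promotes droplet fusion, went the other way on the control diet, at 5.19 FPKM in Vehicle and 2.32 in GW6471 (-1.13, -1.57 to -0.76), and on the CLA diet was at 1.69 FPKM without and 4.85 with GW6471. Lipe, the hormone-sensitive lipase, was at 4.59 FPKM in Vehicle and 8.95 in GW6471 (0.95, 0.76 to 1.16), but on the CLA diet it was lower with GW6471, at 8.45 FPKM without and 5.76 with it, a log2 ratio of -0.55. Of 21 lipid droplet and lipolysis genes 19 were listed and 12 passed, of which 5 were at least 1.5-fold higher and 1 lower, with a median log2 ratio of 0.34 and of 0.21 on the CLA diet.

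Fam71f2 was among the largest rises outside the PPARα list, at 9.7 FPKM in Vehicle, 27.6 in GW6471, 12.71 in CLA and 30.15 in CLA+GW6471 (1.50, 1.28 to 1.74). It lies next to Hilpda: on chromosome 6 of mm9 both are on the plus strand, Hilpda at chr6:29222488-29225446 and Fam71f2 at chr6:29229593-29240680, with 4146 bases between them. Whether reads are shared between the neighbours was not tested.

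Ketone body metabolism had no passing gene past 1.5-fold. Of 8 ketone body genes, all listed, 6 passed, and all 6 were within 1.5-fold with a median of -0.21. The largest of these differences was in Oxct1, the enzyme that uses ketone bodies outside the liver, at 46.31 FPKM in Vehicle, 36.99 in GW6471, 50.58 in CLA and 36.22 in CLA+GW6471 (-0.32, -0.40 to -0.25).

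Within mitochondrial beta-oxidation the differences were uneven. Acadl, the long-chain acyl-CoA dehydrogenase, was at 63.29 FPKM in Vehicle, 130.16 in GW6471, 81.75 in CLA and 106.79 in CLA+GW6471, with a log2 ratio of 1.04 (0.97 to 1.11) on the control diet. Acaa2, the mitochondrial ketoacyl-CoA thiolase, was at 19.93 FPKM in Vehicle, 41.54 in GW6471, 34.59 in CLA and 27.13 in CLA+GW6471 (1.06, 0.91 to 1.20). Hadh, the short-chain hydroxyacyl-CoA dehydrogenase, was at 30.14, 54.71, 61.47 and 32.33 FPKM (0.86, 0.75 to 0.97), and Eci2, an enoyl-CoA isomerase, at 27.69, 49.81, 46.84 and 33.96 FPKM (0.84, 0.72 to 0.97). Acadl was higher with GW6471 on either diet, while Acaa2, Hadh and Eci2 were lower with it on the CLA diet. Some other enzymes of the spiral were nearly level between Vehicle and GW6471. Acadm, the medium-chain dehydrogenase, was at 29.96 and 32.4 FPKM. Hadha and Hadhb, the subunits of the trifunctional protein, were at 16.9 and 16.01 and at 11.04 and 10.93 FPKM. Others were not level but within 1.5-fold: Acadvl was higher in GW6471, at 19.93 and 29.92 FPKM (0.58, 0.46 to 0.72). Acadsb was lower, at 11.21 and 9.12 FPKM (-0.29, -0.46 to -0.14). All 23 listed genes passed, of which 5 (Acadl, Acaa2, Hadh, Eci2 and Etfdh) were at least 1.5-fold higher and none lower, against 3.28% and 2.1% of all genes. Their median was 0.12 on the control diet and -0.31 on the CLA diet.

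Few peroxisomal genes were past 1.5-fold. Abcd2, a peroxisomal fatty acyl-CoA transporter, was at 1.53 FPKM in Vehicle and 4.81 in GW6471 (1.59, 1.39 to 1.91), and at 8.61 in CLA and 1.44 in CLA+GW6471. Cat, catalase, was at 14.64 FPKM in Vehicle and 25.53 in GW6471 (0.80, 0.67 to 0.94), and at 31.93 in CLA and 17.21 in CLA+GW6471. These were the only 2 of 31 passing peroxisomal genes, of 34 listed, that were at least 1.5-fold higher, against 3.28% of all genes, and none was lower. Abcd2 and Cat were highest in CLA, unlike Pdk4 and Cpt1a.

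Over the whole list of 48 PPARα targets, 42 were listed and 31 passed the filter. Of these, 12 were at least 1.5-fold higher in GW6471 and 1 (Cidec) was lower, against 3.28% and 2.1% of all genes, and the median log2 ratio was 0.36 against -0.0041 over all genes. Beyond the counting interval 20 were higher and 1 lower, a mark that 2760 and 2795 of the 10150 genes with a known length also passed. On the CLA diet 8 of the 31 were at least 1.5-fold higher with GW6471 and 6 lower, against 6.84% and 9.15% of all genes, with a median of 0.15. The 11 listed targets below the filter included Ehhadh, the peroxisomal bifunctional enzyme, at 0.38 FPKM in Vehicle and 0.69 in GW6471, and Acaa1b at 0.07 and 0.41 FPKM. Cyp4a10, an omega-hydroxylase used as a PPARα marker in liver, was listed at 0 in both libraries. Fgf21, a fasting hormone, Cd36, a fatty acid transporter, and Plin4 and Plin5, droplet coat proteins, were listed at 0 in Vehicle and were at 0.11, 0.04, 0.01 and 0.03 FPKM in GW6471. The remaining targets that passed included Acsl1, the main hepatic acyl-CoA synthetase, at 34.92 FPKM in Vehicle and 59.83 in GW6471 (0.78), and Ucp2, at 168.77 and 203.11 FPKM (0.27). Both were lower in CLA+GW6471 than in CLA, with Acsl1 at 34.0 against 74.1 FPKM and Ucp2 at 164.16 against 254.78.

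**Figure D2:**
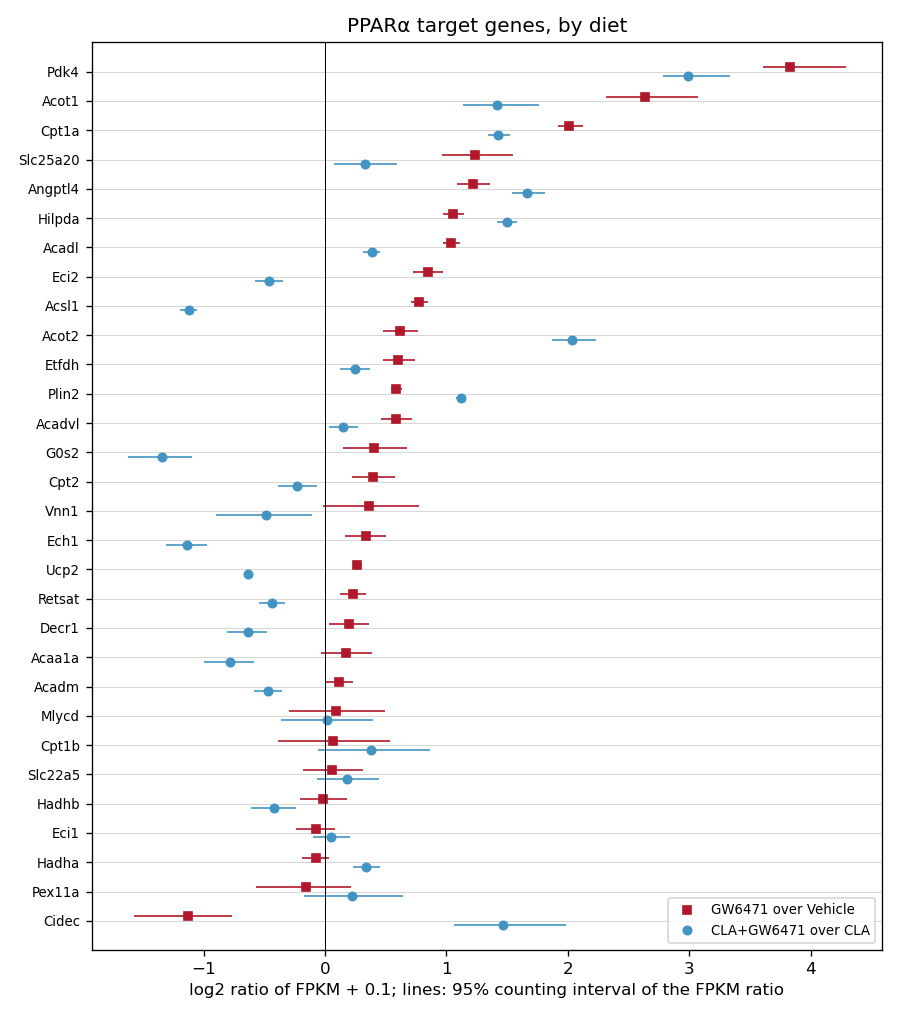
Of the 31 PPARα targets that passed the filter 30 are drawn, with the log2 ratio of FPKM + 0.1 of GW6471 over Vehicle (red squares) and of CLA+GW6471 over CLA (blue circles), lines giving the 95% counting interval of the FPKM ratio. Pdk4, Acot1, Cpt1a, Angptl4, Hilpda, Acot2 and Plin2 are at least 1.5-fold higher in both comparisons, while Acsl1, G0s2 and Ech1 are above 0 in GW6471 over Vehicle and below -1 in CLA+GW6471 over CLA.

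The receptors themselves differed little. Ppara was below the filter, at 0.15 FPKM in Vehicle, 0.06 in GW6471, 0.11 in CLA and 0.07 in CLA+GW6471. On the same per-length scale Ppard was at 24.56, 22.27, 19.76 and 27.27 FPKM, and Pparg at 8.06, 9.28, 10.74 and 9.68 FPKM. Transcripts of the receptor named as the target of GW6471 were thus near the floor of every library, and those of its relatives were not. The partner Rxra was at 9.7 FPKM in Vehicle and 10.61 in GW6471, the corepressor Ncor1 at 40.48 and 44.44, and the coactivator Ppargc1a at 1.58 and 1.41. Of 22 receptors and coregulators 20 passed the filter and all 20 were within 1.5-fold, with a median of 0.13. The largest difference was in Lpin1, a phosphatidate phosphatase that also acts as a coactivator, at 6.48 FPKM in Vehicle and 9.51 in GW6471 (0.55).

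Among the 340 genes past 1.5-fold upwards in GW6471 over Vehicle, 18 were also at least 1.5-fold higher in CLA+GW6471 than in CLA, 231 were at least 1.5-fold lower there and 91 were within 1.5-fold. These comparisons share no library, and 6.84% of all genes were at least 1.5-fold higher and 9.15% lower on the CLA diet. Among the 58 genes past 2-fold in that direction, 9 were at least 1.5-fold higher on the CLA diet and 42 lower. These counts on the CLA diet are at 1.5-fold and are to be read against the same 6.84% and 9.15%. At 2-fold, a threshold not used for these counts, the CLA diet comparison had 1.27% of all genes higher and 2.67% lower. Of the 217 genes at least 1.5-fold lower, 111 were higher on the CLA diet, 9 lower and 97 within 1.5-fold. Most genes higher with GW6471 on the control diet were therefore lower with it on the CLA diet.

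The 18 genes higher with GW6471 on both diets held 7 of the PPARα targets: Pdk4, Acot1, Cpt1a, Angptl4, Hilpda, Acot2 and Plin2. The others included Abca1, the cholesterol exporter driven by LXR, at 3.55 FPKM in Vehicle, 6.22 in GW6471, 3.82 in CLA and 7.25 in CLA+GW6471 (0.79, 0.67 to 0.95). Several genes outside the naming rule were looked at after their values were seen. Klf11, a Krüppel-like transcription factor, was at 1.98, 6.58, 1.63 and 5.53 FPKM (1.68, 1.47 to 2.01). Prickle1, of the planar cell polarity pathway, was at 11.19, 21.66, 10.89 and 21.76 FPKM (0.95, 0.83 to 1.07). Smox, spermine oxidase, was at 57.41, 96.49, 51.83 and 105.58 FPKM (0.75, 0.68 to 0.82), and Bcl2, an inhibitor of apoptosis, at 1.95, 3.01, 1.95 and 3.15 FPKM (0.60, 0.40 to 0.85). In each of these the Vehicle and CLA libraries were close together and both GW6471 libraries stood above them. The other 6 (Fam71f2 and the low-level Pet117, Hist2h3c2, Asdurf, Gm13152 and Moap1) had the same direction, Hist2h3c2 being a histone gene with near-identical copies.

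The promoter of Klf11 is printed as that of a transcription factor in this set (RefSeq, GRCm38.p6, chr12:24651121-24651420, plus strand). Its capitals mark an E-box, CACGTG, 214 to 209 bases before the start.

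Klf11: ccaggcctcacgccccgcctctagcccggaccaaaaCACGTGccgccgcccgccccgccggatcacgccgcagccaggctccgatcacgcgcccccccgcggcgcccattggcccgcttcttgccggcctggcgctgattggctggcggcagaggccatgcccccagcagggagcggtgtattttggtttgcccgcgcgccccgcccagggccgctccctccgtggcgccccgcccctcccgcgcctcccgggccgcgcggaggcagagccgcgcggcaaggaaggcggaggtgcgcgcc

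**Figure D3:**
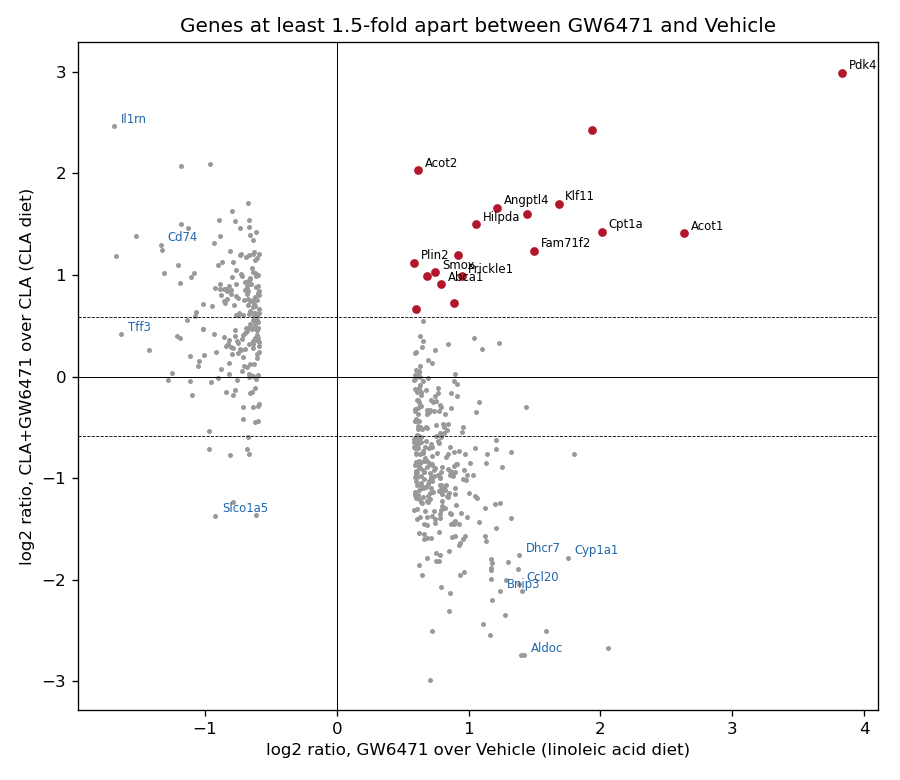
Genes at least 1.5-fold apart between GW6471 and Vehicle and above 0 in both, with the log2 ratio of GW6471 over Vehicle on the horizontal axis and of CLA+GW6471 over CLA on the vertical axis, dashed lines marking 1.5-fold. The 18 red points are higher with GW6471 on both diets, and most other genes on the right lie below 0 (231 of 340 below the lower dashed line).

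Lower with GW6471 on both diets were 9 genes, of which Slco1a5, an organic anion transporter that takes up bile acids, is named by the rule. It was at 10.32 FPKM in Vehicle, 5.4 in GW6471, 12.36 in CLA and 4.73 in CLA+GW6471 (-0.92, -1.16 to -0.72), so both GW6471 libraries were low. Of the other 8 (Trap1a, Klra4, Psca, Gstk1, S100a4, Lrrc4c, Tprg and Mrgprb3), looked at after their values were seen, all but S100a4 had a mean under 5 FPKM. S100a4, a calcium-binding protein, was at 9.6, 6, 9.44 and 6.2 FPKM (-0.67, -1.18 to -0.18).

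**Figure D4:**
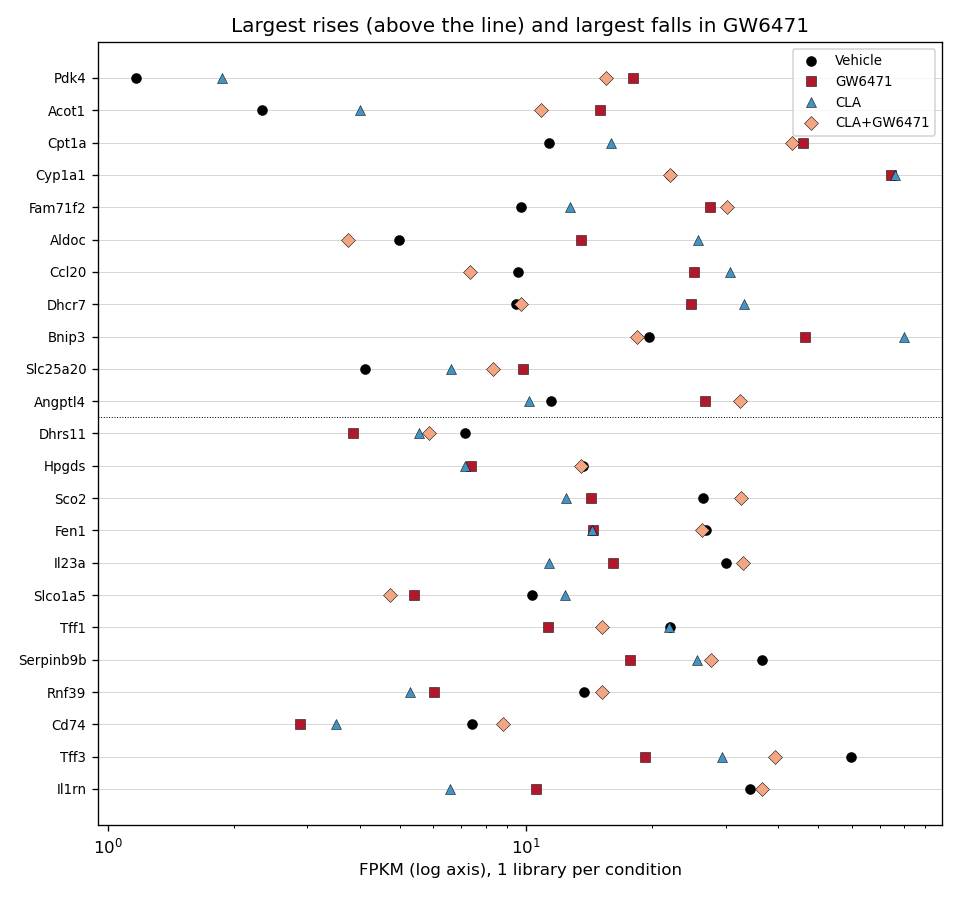
FPKM of each library (log axis) for 11 of the 12 genes with the largest rise in GW6471 over Vehicle (above the dotted line) and the 12 with the largest fall (below it), with Vehicle as circles, GW6471 as squares, CLA as triangles and CLA+GW6471 as diamonds. The Vehicle point of Cyp1a1 lies under the CLA+GW6471 point, both at 22.08 FPKM, and for Pdk4, Acot1, Cpt1a, Fam71f2 and Angptl4 both GW6471 libraries stand to the right of both others.

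Most passing genes of cholesterol synthesis were higher in GW6471 on the control diet, and the median of the list had the opposite sign on the CLA diet. Dhcr7, the last enzyme of the pathway to cholesterol, was at 9.46 FPKM in Vehicle, 24.81 in GW6471, 33.11 in CLA and 9.74 in CLA+GW6471 (1.38, 1.24 to 1.54). Acat2, which supplies acetoacetyl-CoA in the cytosol, was at 3.14, 6.88, 12.44 and 2.22 FPKM (1.11, 0.84 to 1.44). Stard4, a sterol carrier, was at 7.15, 13.46, 15.81 and 6.52 FPKM (0.90), and Hsd17b7, a sterol reductase, at 2.78, 5.38, 5.08 and 3.02 FPKM (0.93, 0.72 to 1.18). In these genes Vehicle and CLA+GW6471 were low and GW6471 and CLA high. All 27 members were listed and 26 passed, of which 14 were at least 1.5-fold higher and none lower, against 3.28% and 2.1% of all genes, with a median log2 ratio of 0.63. On the CLA diet none was at least 1.5-fold higher and 21 were lower, against 6.84% and 9.15% of all genes, with a median of -1.01.

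The promoter of Dhcr7, the sterol gene with the largest difference, is printed from RefSeq (GRCm38.p6, chr7:143823149-143823448, plus strand). Its capitals mark an E-box, CACGTG, 164 to 159 bases before the start.

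Dhcr7: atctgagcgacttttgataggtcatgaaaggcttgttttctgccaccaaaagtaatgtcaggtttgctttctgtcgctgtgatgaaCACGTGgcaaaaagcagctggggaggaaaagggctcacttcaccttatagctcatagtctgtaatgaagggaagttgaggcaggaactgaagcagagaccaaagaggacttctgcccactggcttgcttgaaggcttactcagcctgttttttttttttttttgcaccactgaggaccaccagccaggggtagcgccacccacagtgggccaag

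Some genes of fatty acid synthesis had the same order of libraries. Fads2, the desaturase that acts on linoleic acid, was at 31.46 FPKM in Vehicle, 72.56 in GW6471, 83.97 in CLA and 35.1 in CLA+GW6471 (1.20, 1.09 to 1.32). Scd2, a stearoyl-CoA desaturase, was at 201.8, 366.29, 385.81 and 197.4 FPKM (0.86, 0.84 to 0.88). Scd1, the main form of adult liver, was at 93.36, 142.89, 132.11 and 106.67 FPKM (0.61), and Gpam, which starts glycerolipid synthesis, at 6.86, 11.43, 14.3 and 6.47 FPKM (0.73). These were the 4 of 18 passing lipogenic genes, of 22 listed, that were at least 1.5-fold higher, and none was lower. The list had a median of 0.39 on the control diet and -0.50 on the CLA diet. Acss2, the cytosolic acetyl-CoA synthetase, was at 2.38, 5.64, 7.08 and 2.45 FPKM (1.21, 0.94 to 1.54) and Acsl4, which prefers arachidonic acid, at 39.33, 67.29, 51.64 and 40.8 FPKM (0.77). They were among 5 of 15 passing acyl-CoA thioesterase and synthetase genes, of 28 in the list and 24 listed, that were at least 1.5-fold higher, with none lower and a median of 0.17.

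Of 17 passing genes of the hypoxia response, 11 were at least 1.5-fold higher in GW6471 on the control diet, against 3.28% of all genes. Bnip3, a mitophagy receptor induced by HIF1, was at 19.65 FPKM in Vehicle, 46.56 in GW6471, 79.94 in CLA and 18.42 in CLA+GW6471 (1.24, 1.11 to 1.38). P4ha1, a collagen prolyl hydroxylase, was at 28.04, 50.41, 52.23 and 30.69 FPKM (0.84, 0.77 to 0.92), and P4ha2, another, at 17.61, 31.28, 35.93 and 20.71 FPKM (0.83, 0.70 to 0.96). All 19 members were listed and none of the 17 was at least 1.5-fold lower, with a median of 0.62 and of -0.77 on the CLA diet. Part of glycolysis had the same order. Aldoc, an aldolase, was at 4.98, 13.51, 25.7 and 3.76 FPKM (1.42, 1.23 to 1.65), Pfkl, the liver phosphofructokinase, at 20.14, 38.8, 51.61 and 20.33 FPKM (0.94), and Gpi1 at 142.89, 226.38, 269.79 and 134.41 FPKM (0.66). With Pfkp they were the 4 of 20 passing glycolysis genes, of 27, that were at least 1.5-fold higher, and the median was 0.21 on the control diet and -0.56 on the CLA diet. Pdk1, a HIF1-induced kinase of pyruvate dehydrogenase, was at 6.31, 10.41, 15.59 and 5.12 FPKM (0.71). Unlike Pdk4 it was low in CLA+GW6471. Pdk4 and Pdk1 were the 2 of 11 passing genes of pyruvate dehydrogenase regulation, of 14, that were at least 1.5-fold higher, while the pyruvate carrier subunits Mpc1 and Mpc2 were at 20.47 and 14.42 and at 22.03 and 16.61 FPKM in Vehicle and GW6471 (-0.50 and -0.41).

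Cyp1a1, the cytochrome P450 that is the standard readout of the aryl hydrocarbon receptor, was at 22.08 FPKM in Vehicle, 74.74 in GW6471, 76.07 in CLA and 22.08 in CLA+GW6471, with a log2 ratio of 1.75 (1.66 to 1.86). GW6471 and CLA were alike in level, as were the other two libraries. Ahr, the receptor, was at 20.92, 30.65, 36.13 and 15.94 FPKM (0.55), Nqo1, a quinone reductase, at 0.72, 1.53, 2.67 and 0.96 FPKM (0.99, 0.30 to 1.90), and Tiparp, another target, at 16.29, 19.29, 14.56 and 17.09 FPKM (0.24). Of 12 members 11 were listed and 5 passed, of which 2 (Cyp1a1 and Nqo1) were at least 1.5-fold higher, with a median of 0.55 on the control diet and -1.18 on the CLA diet. The promoter of Cyp1a1 is printed as that of the gene with the largest rise outside the PPARα list among genes with a mean of at least 5 FPKM (RefSeq, GRCm38.p6, chr9:57697363-57697662, plus strand). Its capitals mark a TATA box, TATAAA, 30 to 25 bases before the start, and the dioxin response motif TNGCGTG was not in this window.

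Cyp1a1: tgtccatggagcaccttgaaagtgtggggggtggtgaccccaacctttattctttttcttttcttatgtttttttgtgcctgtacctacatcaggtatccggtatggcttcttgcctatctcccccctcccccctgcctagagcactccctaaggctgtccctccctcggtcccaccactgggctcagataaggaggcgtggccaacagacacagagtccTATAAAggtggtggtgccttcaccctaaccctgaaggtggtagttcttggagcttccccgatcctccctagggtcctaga

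Of 34 NRF2 and glutathione genes, all listed, 29 passed, and 9 were at least 1.5-fold higher and none lower, against 3.28% and 2.1% of all genes, with a median of 0.27 and of -0.55 on the CLA diet. Slc7a11, the cystine importer, was at 28.08 FPKM in Vehicle, 52.65 in GW6471, 44.62 in CLA and 24.51 in CLA+GW6471 (0.90, 0.86 to 0.96). Gsta3 and Gsta4 are glutathione transferases of a family of near-identical copies whose counts are uncertain. Gsta3 was at 1.61, 3.74, 5.46 and 1.41 FPKM (1.17, 0.64 to 1.84), and Gsta4 at 8.52, 14.46, 20.11 and 5.97 FPKM (0.76, 0.47 to 1.06). All 3 were highest in GW6471 or CLA and lowest in Vehicle or CLA+GW6471.

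Short motifs were counted in the promoter windows of these groups and of all genes. Of the 10355 genes 8414 had a RefSeq promoter. The DR1 motif (AGGTCA or AGGGCA, any base, then AGGTCA or AGGGCA, both strands), the kind of site that PPAR and RXR bind together, was in 0.0951% of all promoters and in none of those of the 43 genes at least 2-fold higher, nor of the 26 PPARα targets with a promoter. The E-box CACGTG was in 12.3% of all promoters and in 11.6% of the 43, and in 18.8% of the 16 promoters of genes higher on both diets (Klf11, Abca1 and Plin2). The dioxin response motif TNGCGTG was in 9.91% and 4.65%, the sterol motif (ATCAC, any base, then CCAC) in 0.178% and 2.33% (Aldoc alone), and TATAAA in 8.25% and 9.3%. Of the 18 sterol genes with a promoter, 22.2% held the E-box and none the sterol motif.

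In a wider window, 5000 bases either side of the gene start in mm9, the DR1 letters were near 5.06% of 10136 genes and near none of the 14 genes higher on both diets that had a position. They were near 2 of the 31 PPARα targets (6.45%). The sites are printed because PPAR and RXR share this kind of element, with the whole site in capitals. Etfdh, which passes electrons from acyl-CoA dehydrogenases to the respiratory chain, has its site in an exon 476 bases past the start, at chr3:79432303-79432315 on the minus strand, and was at 17.42 FPKM in Vehicle and 26.53 in GW6471 (0.60, 0.48 to 0.74). G0s2, an inhibitor of adipose triglyceride lipase, has its site 3629 bases before the start, at chr1:195103005-195103017 on the plus strand, and was at 13.3 and 17.61 FPKM (0.40, 0.15 to 0.67). A match is a description of letters and says nothing of binding.

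Etfdh site: AGGGCAAAGGTCA

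G0s2 site: AGGTCAGAGGTCA

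Secreted immune factors differed in both directions. Il1rn, the antagonist of the IL1 receptor, was at 34.25 FPKM in Vehicle, 10.56 in GW6471, 6.58 in CLA and 36.73 in CLA+GW6471 (-1.69, -1.84 to -1.55). Il23a, a subunit of IL23, was at 30.07, 16.15, 11.32 and 33.09 FPKM (-0.89, -1.07 to -0.72). Ccl20, a chemokine for cells with CCR6, went the other way at 9.57, 25.17, 30.65 and 7.36 FPKM (1.39, 1.19 to 1.61), as did Il33, an alarmin, at 13.25, 24.25, 33.54 and 12.2 FPKM (0.87). GW6471 and CLA were on the same side of Vehicle and CLA+GW6471 in all 4 genes. Of 31 interleukin and chemokine genes 29 were listed and 22 passed, with 2 at least 1.5-fold higher, 3 lower and a median of -0.01. Cd74, the invariant chain of MHC class II, was at 7.41, 2.88, 3.52 and 8.81 FPKM (-1.33, -1.75 to -0.97), and H2-Eb1 at 4.44, 2.51, 2.47 and 4.53 FPKM (-0.80, -1.31 to -0.33), a class II gene whose reads may be shared with its relatives. The other passing class II gene, H2-Ab1, went the other way, at 1.08, 1.77, 1.59 and 0.85 FPKM (0.66, -0.06 to 1.47). Of 12 passing antigen presentation genes, of 15, 2 were at least 1.5-fold higher and 2 lower, with a median of 0.16.

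Of 13 passing keratin and epithelial barrier genes, 5 were at least 1.5-fold lower in GW6471, against 2.1% of all genes. Tff3, a trefoil peptide of mucus-secreting epithelium, was at 59.8 FPKM in Vehicle, 19.2 in GW6471, 29.46 in CLA and 39.46 in CLA+GW6471 (-1.63, -1.89 to -1.39). Tff1 was at 22.12, 11.28, 22.02 and 15.18 FPKM (-0.97, -1.33 to -0.63), and Sprr1b, an envelope protein, at 61.13, 36.25, 47.23 and 59.28 FPKM (-0.75). GW6471 was the lowest library for each of these. Of the 33 genes of the list 27 were listed, and of the 13 that passed 1 was at least 1.5-fold higher (Ivl) and the most abundant, Sprr1a, was level. The median was -0.29, and -0.02 over all listed members without the filter on mean FPKM. Serpinb9b, a granzyme inhibitor, was at 36.66, 17.67, 25.67 and 27.66 FPKM (-1.05), again lowest in GW6471. Among the largest falls were also Rnf39 at 13.75, 6.02, 5.29 and 15.22 FPKM (-1.18), Fen1, a flap endonuclease of DNA replication, at 26.86, 14.49, 14.4 and 26.34 FPKM (-0.89), Sco2, a copper chaperone of cytochrome oxidase, at 26.49, 14.31, 12.44 and 32.65 FPKM (-0.88), and Hpgds, a prostaglandin D synthase, at 13.7, 7.38, 7.15 and 13.51 FPKM (-0.88). Dhrs11 was at 7.16, 3.85, 5.56 and 5.85 FPKM (-0.88, -1.28 to -0.52).

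The circadian clock is the subject of the study from which the libraries come, and in this comparison its core differed little. Cry1, a repressor of CLOCK and BMAL1, was at 10.71 FPKM in Vehicle, 6.71 in GW6471, 4.63 in CLA and 13.05 in CLA+GW6471 (-0.67, -0.86 to -0.49), the single member of 15 passing core genes, of 19 listed, that was at least 1.5-fold apart. Nr1d1, which encodes REV-ERBα, was at 17.97, 22.71, 22.83 and 23.29 FPKM (0.34, 0.21 to 0.46), and Nr1d2 at 9.78, 13.77, 12.62 and 9.94 FPKM (0.49). Arntl, which encodes BMAL1, was at 19.83 FPKM in Vehicle and 17.12 in GW6471 (-0.21), Clock at 5.94 and 5.99 (0.01), Per1 at 14.13 and 14.61 (0.05) and Per2, below the filter, at 0.97 and 1.1. On the CLA diet the same genes were higher with GW6471: Arntl was at 11.59 FPKM without and 21.01 with it, Clock at 3.54 and 6.8, and Per1 at 9.91 and 15.14. The core had a median of 0.05 on the control diet and 0.36 on the CLA diet. Among 7 passing output genes, of 11 listed, Dbp, at 0.77, 1.87, 3.18 and 0.82 FPKM (1.18, 0.60 to 2.0), and Bhlhe40, at 57.05, 87.07, 103.46 and 54.11 FPKM (0.61), were at least 1.5-fold higher.

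In units of FPKM the largest rises were of abundant secreted or household transcripts. Igfbp1, a fasting-induced binding protein of insulin-like growth factors, was at 1029.8 FPKM in Vehicle, 1695.2 in GW6471, 1901.4 in CLA and 953.39 in CLA+GW6471 (0.72, 0.70 to 0.74), and Apoe at 1321.2, 1761.8, 2298.3 and 1241.6 FPKM (0.42). Alb, Gapdh and Ftl1 followed. Of the 13 passing hepatocyte markers Alb (0.65) and Fgb, a fibrinogen chain, at 45.22, 86.43, 138.03 and 35.68 FPKM (0.93), were at least 1.5-fold higher and none lower, with a median of 0.05. The largest falls in FPKM were of Rps14 (-0.29), Rplp1 (-0.34), Lgals1 (-0.49), Sqstm1 (-0.41) and Rpl18 (-0.30), of which 3 encode ribosomal proteins.

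Several other lists held few genes past 1.5-fold. None of the 39 cell cycle genes, 21 endoplasmic reticulum chaperones, 15 interferon-stimulated genes, 13 heat shock genes and 9 genes of the EGF family that passed was 1.5-fold apart, and their medians were -0.03, 0.16, 0.11, 0.09 and 0.03. Among 12 passing glucocorticoid-responsive genes, 1 was lower, Mt2, a metallothionein, at 26.07, 15.81, 21.86 and 22.71 FPKM (-0.72, -1.01 to -0.44). Of 25 passing ATF4 genes Slc7a11 was higher and Nupr1, a stress-induced chromatin protein, was lower, at 249.94, 151.27, 110.73 and 255.93 FPKM (-0.72, -0.80 to -0.65). Of 21 passing genes of the tricarboxylic acid cycle Idh1 was higher, at 43.75, 79.63, 104.75 and 41.26 FPKM (0.86), and of 14 passing genes of gluconeogenesis and fasting Igfbp1, Ddit4 and Sesn1 were. Of 24 passing immediate early genes Fos, at 5.88, 10.49, 8.32 and 6.41 FPKM (0.82, 0.60 to 1.07), and Ier3 were higher. Of 7 passing CAR and PXR targets Abcc3 was higher, at 12.38, 19.21, 22.33 and 11.96 FPKM (0.63, 0.53 to 0.74), and of 25 passing extracellular matrix genes Tgfbi was higher (0.72, 0.45 to 1.03) and Mmp10 lower (-0.62, -0.90 to -0.36). Of 5 passing genes of bile acid and cholesterol export Abca1 was higher, and Nr1h4, the bile acid receptor FXR, was at 9.39, 6.44, 5.59 and 10.65 FPKM (-0.54, -0.78 to -0.31). Of 4 passing acute phase genes Fgb and Hp were higher.

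**Figure D5:**
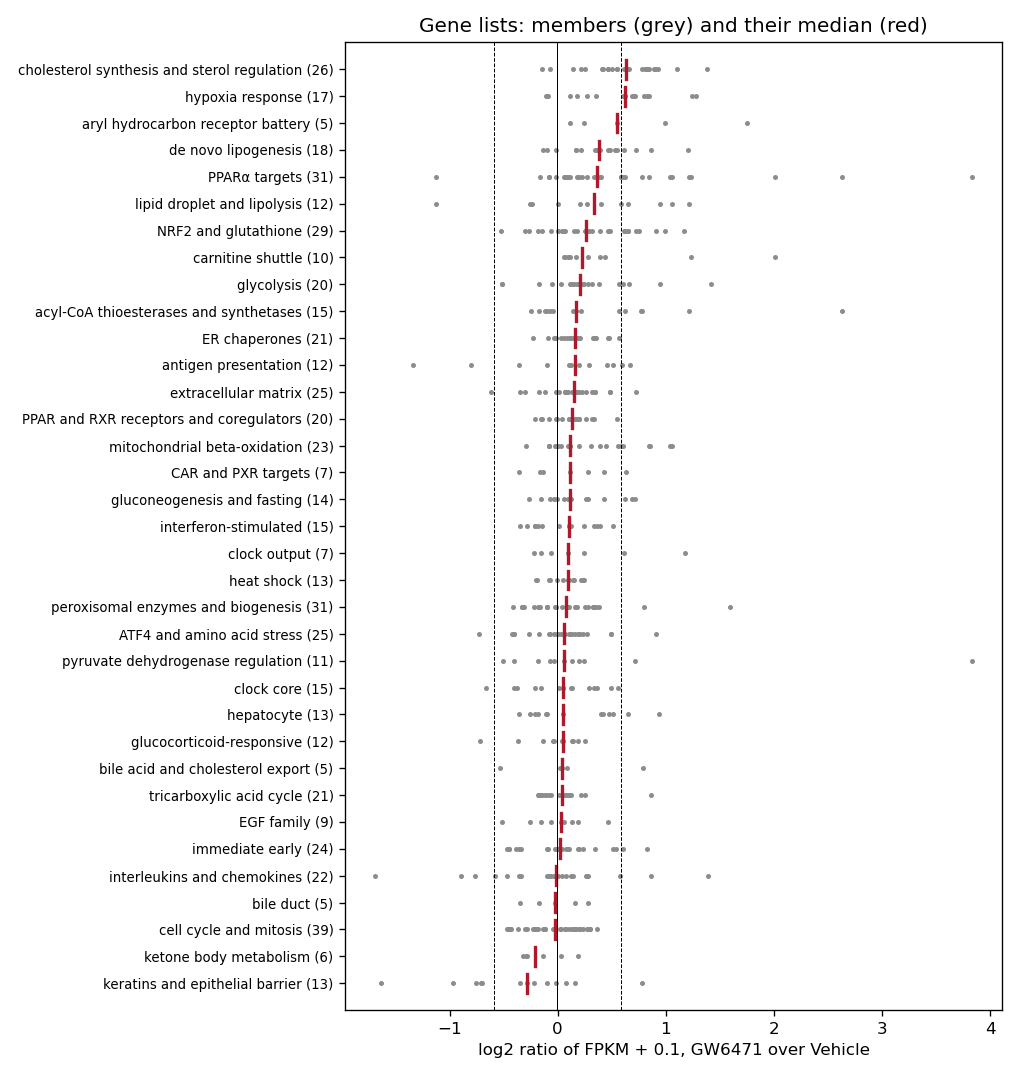
Log2 ratio of FPKM + 0.1 of GW6471 over Vehicle for every passing member (grey points) and the median (red bar) of the lists with at least 5 passing genes, the number of passing genes in brackets and dashed lines at 1.5-fold. Medians run from 0.63 for cholesterol synthesis to -0.29 for keratins and epithelial barrier, most lists lie near 0, and Pdk4 at 3.83 is drawn in both of its lists.

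Other cell types' markers moved little beside these results. Of 10 bile duct markers 9 were listed and 5 passed, all within 1.5-fold, and the list summed to 474.7 FPKM in Vehicle, 545 in GW6471, 657.4 in CLA and 405.8 in CLA+GW6471, with Krt19 at 0.28 FPKM or less in each. Macrophage markers summed to 48.32 and 47.18 FPKM in Vehicle and GW6471, with 7 of 15 listed and 2 (Cd14 and Cd68) passing, and stellate cell and fibroblast markers to 1290 and 1353 FPKM, nearly all of it Dcn. Lymphocyte markers summed to 0.14 FPKM in both, erythroid markers to 2.41 and 2.1, and those of adipocytes, muscle and pancreas to 11.76 and 10.64. The hepatocyte list summed to 2524 FPKM in Vehicle, 3465 in GW6471, 4356 in CLA and 2381 in CLA+GW6471. That is the order of libraries seen in the sterol and hypoxia genes, and its part in those results was not tested.

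The ratio also moved with transcript length. In 10 classes of 1015 genes by length the median log2 ratio rose from -0.12 in the shortest to 0.11 in the longest, and in classes by GC content it ran from 0.07 in the lowest to -0.05 in the highest. Of 79 passing ribosomal protein genes, most of them short, 75 were lower in GW6471, with a median of -0.15 and none at least 1.5-fold lower. On the CLA diet the length classes ran from -0.04 to 0.07. The part of length in the results was not tested.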

How the data were processed

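RNA from liver was sequenced by the authors on an Illumina instrument, mapped to mm9 with BWA and Bowtie and quantified with Cufflinks, per the labels and the study's methods. The deposited table holds 1 FPKM column per condition, with no counts, SD or p-values, and the sources used here do not give the normalization within Cufflinks. Rows were kept as deposited, and 132 blank or date-like symbols (107 and 25) were filled from RefSeq by gene ID. Depth was estimated from the steps of low FPKM values in short transcripts with GENCODE lengths for mm9, and gave the exact 95% Clopper-Pearson counting interval of each ratio. Ratios used log2 of FPKM + 0.1 over genes with a mean of at least 1 FPKM. With 1 library per condition no test was possible.

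Named were the 12 largest rises and 12 largest falls in log2 ratio among genes with a mean of at least 5 FPKM, the 5 largest rises and falls in FPKM, the 4 members of each list with the largest absolute ratio, and members of the PPARα target, receptor and clock core lists, except for a few genes that are not reported here. The members and the 42 lists (817 genes) were chosen with earlier results of these data known, so the lists are descriptions and not independent evidence. Motifs were searched on both strands in RefSeq promoters (GRCm38.p6) and in mm9, and no coordinates were converted. Alternatives were the pseudocount, the filter and the scaling of the libraries. Scripts were tested on simulated data and ran with scipy 1.17.1, numpy 2.4.6 and pandas 2.3.3 under Python 3.11.15, and figures were drawn with matplotlib 3.10.9.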

Additional observations from a re-analysis of the deposited data

Results flagged for a closer look

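The following results had opposite signs in the comparison of GW6471 with Vehicle and in that of CLA+GW6471 with CLA. The difference between the diets was not tested, since each condition is 1 library, and no cause was tested.

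Of the gene lists, the median log2 ratio of cholesterol synthesis and sterol regulation was 0.63 in GW6471 over Vehicle and -1.01 in CLA+GW6471 over CLA. De novo lipogenesis had medians of 0.39 and -0.50, the hypoxia response 0.62 and -0.77, and the aryl hydrocarbon receptor battery 0.55 and -1.18.

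Of single genes with a mean of at least 5 FPKM that were at least 2-fold apart in both comparisons, 11 were higher in GW6471 over Vehicle and lower in CLA+GW6471 over CLA: Aldoc had log2 ratios of 1.42 and -2.74, Acat2 of 1.11 and -2.43, Bnip3 of 1.24 and -2.11, Ccl20 of 1.39 and -2.04, Arrdc3 of 1.17 and -1.80, Cyp1a1 of 1.75 and -1.78, Dhcr7 of 1.38 and -1.75, Rab3a of 1.08 and -1.43, Fads2 of 1.20 and -1.26, Fgl1 of 1.07 and -1.20, and Epas1 of 1.01 and -1.14. In the other direction Il1rn had log2 ratios of -1.69 and 2.46, Rnf39 of -1.18 and 1.51, and Cd74 of -1.33 and 1.30.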

How the results depend on the processing

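Each condition is 1 library, so the spread between mice is unknown and no alternative tests it. No paired analysis was possible because each group has 1 library, and the shared replicate number pairs nothing. The counts of genes past 2-fold depended on how low values were treated. Against 58 higher and 32 lower, a pseudocount of 1 gave 22 and 10, no filter on mean FPKM gave 207 and 219, and a mean of at least 5 FPKM gave 22 and 5. The median log2 ratio of all genes (-0.0041) was -0.0104 with a mean of at least 5 FPKM, 0.0383 with the same FPKM sum in all libraries and 0.00195 with median-of-ratios scaling. The median of the interferon-stimulated genes (0.11) was -0.016 with a mean of at least 5 FPKM, a filter that leaves fewer of them. None of the 828 log2 ratios of 207 named genes under the alternatives changed sign as called, but these alternatives could not test this. A pseudocount cannot change the sign of a ratio. Each scaling shifted the ratios by less than 0.1, the size from which a direction was called. Of the 828 ratios, 802 moved by less than their counting interval. Of the others, Pdk4 was at 3.13, Acot1 at 2.26, Abcd2 at 1.20 and Abca1 at 0.67 with a pseudocount of 1. Depth limits low genes: among genes with a mean of 1 to 2 FPKM 19.5% were past 1.5-fold, and among those of at least 100 FPKM 2.39%.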
